A study of Mus musculus with 2 samples.

Results

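A set of 10 genes of the epiblast transition was taken from the transcriptomes of mouse embryonic stem cells by their symbols, Otx2, Pou3f1, Zic2, Foxd3, Grhl2, Sall2, Fst, Wnt8a, Tcf15 and Gbx2, and all 10 were found, 1 row each, among 17817 genes. The series held 1 library of Setd2 KO cells and 1 library of wild type cells, both of the mixed strain 129SV/C57BL/6 at passages 10 to 12 and without treatment. Setd2 codes for a histone methyltransferase that places the trimethyl mark on lysine 36 of histone H3 along active genes, and the comparison asked which levels differ between knockout and wild-type cells. The cells had grown on feeder cells and were passaged on gelatin to remove them before collection. The labels give neither the allele nor the number of lines, and with 1 library of each genotype, differences between the lines and the effect of the genotype cannot be told apart.

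Embryonic stem cells resemble the naive epiblast of the embryo before implantation. On leaving that state they pass through a formative stage to a primed one, like the epiblast after implantation, and transcription factors such as Otx2 and Pou3f1 are switched on while naive factors are switched off. Grhl2, Zic2 and Foxd3 act at enhancers that are used or retired along the way, Tcf15 marks stem cells that begin it, and Gbx2 stands apart as a factor that the cytokine LIF induces in naive cells. Fst and Wnt8a code for secreted proteins of the activin and Wnt pathways, which pattern the epiblast.

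The library of KO cells held 52041677 read equivalents and that of wild-type cells 56129838, a read equivalent being 76 sequenced bases over a gene. Levels are given as CPM, read equivalents per 1000000 of the library. Setd2 itself was at 174 CPM in KO cells and 452 CPM in wild-type cells, 38.5% of the wild-type level. This is a level over the whole gene, and any altered part, which the labels do not give, was not measured on its own. The libraries also differed outside Setd2. The 8 rows of the Y chromosome summed to 331 CPM in KO cells and 0.835 CPM in wild-type cells, and the median log2 fold of chromosome 8 was -0.35, while those of the other autosomes ran from 0.00 to 0.13. None of the 10 genes lies on chromosome 8 or Y. The stem cell markers Pou5f1 (544 CPM in KO cells and 558 CPM in wild-type cells) and Sox2 (417 and 458 CPM) were abundant in both libraries. With 1 library of each genotype, no p-value or replicate error can be had. The 95% intervals cover counting error only, and every difference describes this pair of libraries. In such bulk samples, fewer cells of a type and less RNA per cell cannot be told apart.

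The 10 genes did not move one way. Of these, 5 stood below their wild-type level in KO cells and 5 above it, and their median log2 fold of KO over wild type was 0.04, against 0.05 for all 13523 genes compared. Where a mean of 5 CPM was required, which leaves out Fst and Wnt8a, the median of the remaining 8 was -0.24, against 0.05 for all genes. These folds are log2 of the 2 CPM values with 0.5 CPM added to each, taken where both libraries average 1 CPM or more, so those of low genes are understated. All 10 genes passed that floor in each library separately. Gbx2 and Foxd3 were at least 2-fold lower, 2 of 10 genes, against 2.11% of all genes compared. A count of 0 of the 10 was at least 2-fold higher, against 1.76% of all genes. The other 8 lay within 1.5-fold on this scale, and so did 83.6% of the 7383 genes at levels between those of Fst and Grhl2. Intervals that leave out a ratio of 1 were found for 8 of the 10 genes and for 69.1% of those 7383 genes.

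**Figure D1:**
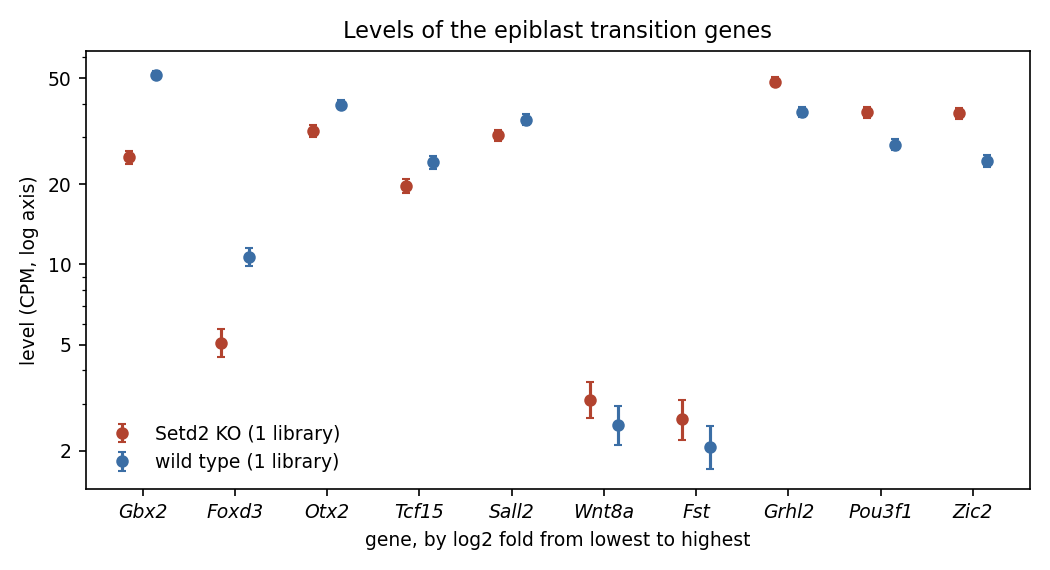
Level of each of the 10 genes in CPM, on a log axis, in the Setd2 KO cells (left point of each pair) and wild-type cells (right point), with exact 95% Poisson intervals for counting error. Gbx2 at 25.2 against 51.4 CPM and Foxd3 at 5.07 against 10.7 CPM are the widest pairs, and the points of Grhl2, Pou3f1 and Zic2 are higher in KO cells.

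Gbx2 (gene number 14472, chromosome 1, 91824537 to 91827751, minus strand, mm9), a homeobox gene tied to LIF and Stat3 in naive cells and to the hindbrain later, was the gene with the lowest fold. It was at 25.2 CPM in KO cells and 51.4 CPM in wild-type cells, from 1314 and 2888 read equivalents. Its KO level was 49.1% of the wild-type level (interval 45.9 to 52.4%), a log2 fold of -1.01. Of 2533 other genes with a mean level within 1.5-fold of that of Gbx2, 39 (1.54%) were at least as low. The annotated transcript D130058E05Rik overlaps this row on the opposite strand, with 466 bases inside it from the exon that overlaps most. The sources do not say whether counting used strand, so its reads and those of Gbx2 cannot be told apart.

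Foxd3 (gene number 15221, chromosome 4, 99322990 to 99325362, plus strand, mm9), a single-exon forkhead gene needed in the early epiblast and in the neural crest, was at 5.07 CPM in KO cells and 10.7 CPM in wild-type cells. That is 264 and 599 read equivalents, and 47.5% of the wild-type level (interval 41.0 to 55.0%). Of 1944 other genes at a like level, 41 (2.11%) were at least as low. The annotated transcript BX005053.1 overlaps the Foxd3 row on the same strand, with 89 bases inside it from the exon that overlaps most, and could share its reads. The intervals of both Gbx2 and Foxd3 reach over 50%, so both genes stand at the 2-fold threshold rather than clearly past it, and with a pseudocount of 1 CPM neither passed (0 of the 10 genes). At 1.5-fold the count was the same, 2 lower against 6.77% of all genes, and 0 higher against 7.42%. Zic2 lay just inside that threshold, at a log2 fold of 0.584 with the pseudocount of 0.5 CPM, and its ratio without a pseudocount was 1.51.

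The promoters of Foxd3 and Gbx2 are shown because these genes had the lowest folds. Of the 10 genes, 4 (Foxd3, Gbx2, Otx2 and Sall2) were in the promoter table of RefSeq (build GRCm38.p6), which gives 300 bases around each gene's start. The Foxd3 window is chr4:99656049-99656348 on the plus strand and that of Gbx2 is chr1:89931127-89931426 on the minus strand, both written 5′ to 3′. Capitals mark the palindrome CACGTG, an E-box.
Foxd3: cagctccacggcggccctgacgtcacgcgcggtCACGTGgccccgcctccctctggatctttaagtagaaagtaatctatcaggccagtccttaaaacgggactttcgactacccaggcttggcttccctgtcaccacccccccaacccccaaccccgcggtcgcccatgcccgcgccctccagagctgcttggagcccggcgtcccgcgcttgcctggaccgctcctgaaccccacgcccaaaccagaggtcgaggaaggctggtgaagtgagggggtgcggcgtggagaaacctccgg
Gbx2: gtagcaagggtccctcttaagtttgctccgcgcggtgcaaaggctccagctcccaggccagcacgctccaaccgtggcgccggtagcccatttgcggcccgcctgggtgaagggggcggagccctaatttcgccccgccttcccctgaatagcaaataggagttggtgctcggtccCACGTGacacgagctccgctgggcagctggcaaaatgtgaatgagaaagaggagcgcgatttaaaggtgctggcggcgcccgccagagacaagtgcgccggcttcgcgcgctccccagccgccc
The E-box began 217 bases before the start of Foxd3 and 74 bases before that of Gbx2. It was in 7.15% of all 32851 promoters of the table, and in none of the 4 Otx2 and 2 Sall2 windows, a count of 0. Both windows were rich in CG dinucleotides, with 25 in Foxd3 and 27 in Gbx2, against a median of 7 over all promoters. At least 25 were found in 18.4% of all promoters. On both strands 7 other motifs were searched, the TATA box TATAAA, the GC box GGGCGG, the POU octamer ATGCAAAT, the STAT motif TTCNNNGAA, the OTX motif TAATCC, the TCF motif ATCAAAG and the CCAAT box. The Foxd3 window held 0 of these 7, and the Gbx2 window held the GC box alone, at 2 places, against 35.7% of all promoters with at least 1. These matches describe letters in a window and say nothing about binding.

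The other transcription factor genes with lower levels, Otx2, Tcf15 and Sall2, lay much closer to the wild type. Otx2 (chromosome 14, 49277859 to 49282547, minus strand, mm9), the homeobox factor that redirects Pou5f1 to new enhancers when naive cells are released, was at 31.7 CPM in KO cells and 39.8 CPM in wild-type cells. This is 79.6% of the wild-type level (interval 74.6 to 84.9%). Tcf15 (chromosome 2, 151969345 to 151974832, plus strand, mm9), a basic helix-loop-helix factor gene later needed in somites, was at 19.7 CPM in KO cells and 24.2 CPM in wild-type cells, or 81.5% (75.1 to 88.5%). Sall2 (chromosome 14, 52930856 to 52948345, minus strand, mm9), a zinc finger gene of the Spalt family, was at 30.5 and 35.0 CPM in KO and wild-type cells, or 87.3% (81.7 to 93.3%). Differences of this size were common. Among genes of a like level, 14.8% were at least as low as Otx2, 19.2% as Tcf15 and 24.0% as Sall2.

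Zic2, Pou3f1 and Grhl2 were higher in KO cells. Zic2 (chromosome 14, 122874606 to 122879550, plus strand, mm9), a zinc finger gene of primed cells and the forebrain, had the highest fold of the 10. It was at 36.9 CPM in KO cells and 24.5 CPM in wild-type cells, from 1921 and 1373 read equivalents, 1.51-fold higher (interval 1.41 to 1.62). Of 2503 genes at a like level, 111 (4.43%) were at least as high. Pou3f1 (chromosome 4, 124334896 to 124336413, plus strand, mm9), a single-exon POU factor gene also called Oct6, was at 37.2 and 28.2 CPM in KO and wild-type cells, 1.32-fold higher (1.24 to 1.41). Grhl2 (chromosome 15, 37162791 to 37293321, plus strand, mm9), a grainyhead factor gene of epithelia, was at 48.5 and 37.2 CPM, 1.30-fold higher (1.23 to 1.38). At like levels, 13.9% of genes were at least as high as Pou3f1 and 14.7% as Grhl2. Exons of Gm16136, Gm16137 and Gm16138 lie inside the Grhl2 row and could share its reads.

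The genes for secreted proteins were the least abundant, and their ratios were the least certain. Wnt8a (chromosome 18, 34701982 to 34707715, plus strand, mm9), a Wnt ligand gene of the posterior epiblast, was at 3.11 CPM in KO cells and 2.49 CPM in wild-type cells, from 162 and 140 read equivalents. Its ratio was 1.25 (interval 0.989 to 1.58). Fst (chromosome 13, 115242470 to 115248938, minus strand, mm9), whose product follistatin binds and blocks activin, was at 2.62 and 2.06 CPM in KO and wild-type cells, with a ratio of 1.27 (0.980 to 1.63). Both intervals hold 1, so at this depth no difference was detectable for either gene, and one of up to 1.6-fold is within them.

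**Figure D2:**
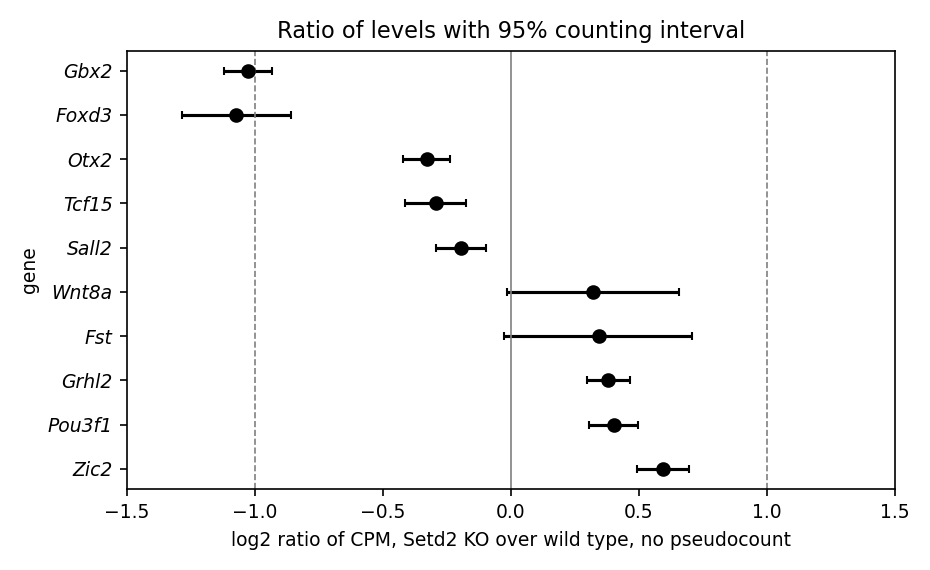
Log2 ratio of the CPM levels of the 10 genes, Setd2 KO over wild type, without a pseudocount, with the exact conditional binomial 95% interval. Dashed lines mark 2-fold. The intervals of Gbx2 and Foxd3 cross the lower dashed line and those of Wnt8a and Fst cross 0.

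**Figure D3:**
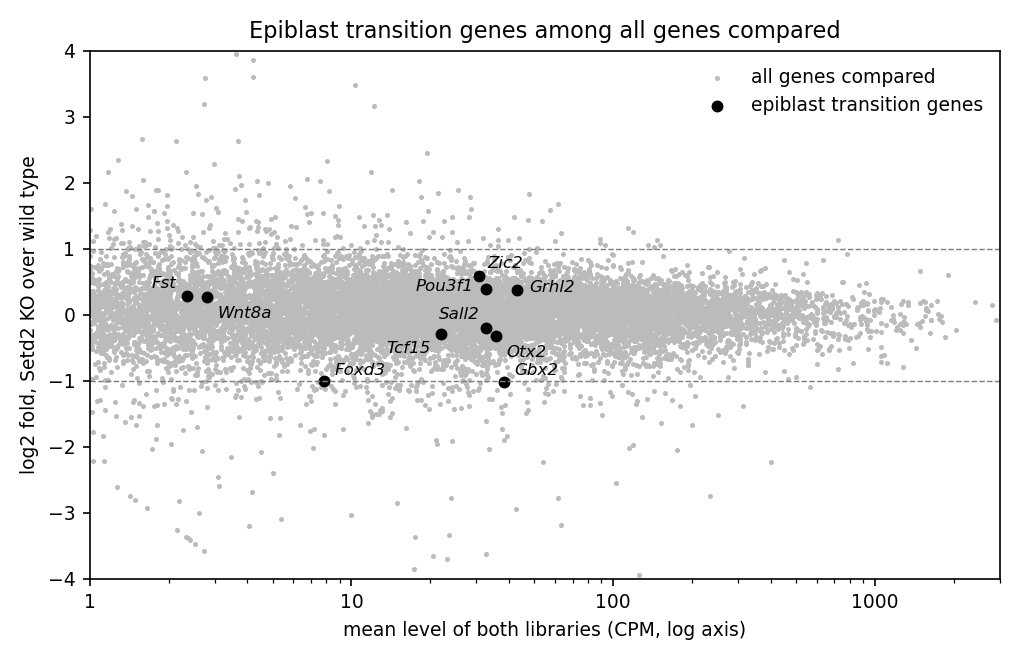
Log2 fold of Setd2 KO over wild type (0.5 CPM added to each value) against the mean level in CPM on a log axis, for the 13523 genes compared (grey) and the 10 epiblast transition genes (black). Gbx2 and Foxd3 sit on the lower dashed 2-fold line, the other 8 lie inside the grey cloud, and 34 genes lie outside the axes.

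Per length, the order of the genes differed between the libraries. Levels were divided by the exon bases of the GENCODE models that lie inside each row's span, giving CPM per kb. In KO cells the order was Pou3f1 (24.5), Tcf15 (21.1), Otx2 (16.5), Gbx2 (11.9), Zic2 (8.82), Grhl2 (8.81), Sall2 (5.73), Foxd3 (2.14), Wnt8a (2.05) and Fst (1.06 CPM per kb). Zic2 and Grhl2 were within each other's counting intervals there, and so were Foxd3 and Wnt8a. In wild-type cells Tcf15 (25.9) and Gbx2 (24.2) led, followed by Otx2 (20.7), Pou3f1 (18.6), Grhl2 (6.77), Sall2 (6.56), Zic2 (5.85), Foxd3 (4.50), Wnt8a (1.64) and Fst (0.836 CPM per kb), and the intervals of Tcf15 and Gbx2, and of Grhl2 and Sall2, overlapped. Pou3f1 was thus at 2.06 times the Gbx2 level per kb in KO cells and at 0.767 times in wild-type cells. Pou3f1 against Foxd3 gave 11.5 times in KO cells and 4.13 times in wild-type cells. The rows of Gbx2, Pou3f1 and Otx2 span only 50.1%, 50.5% and 56.6% of the exon bases that GENCODE gives these genes, so their place in the order depends on the gene model the authors counted over.

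**Figure D4:**
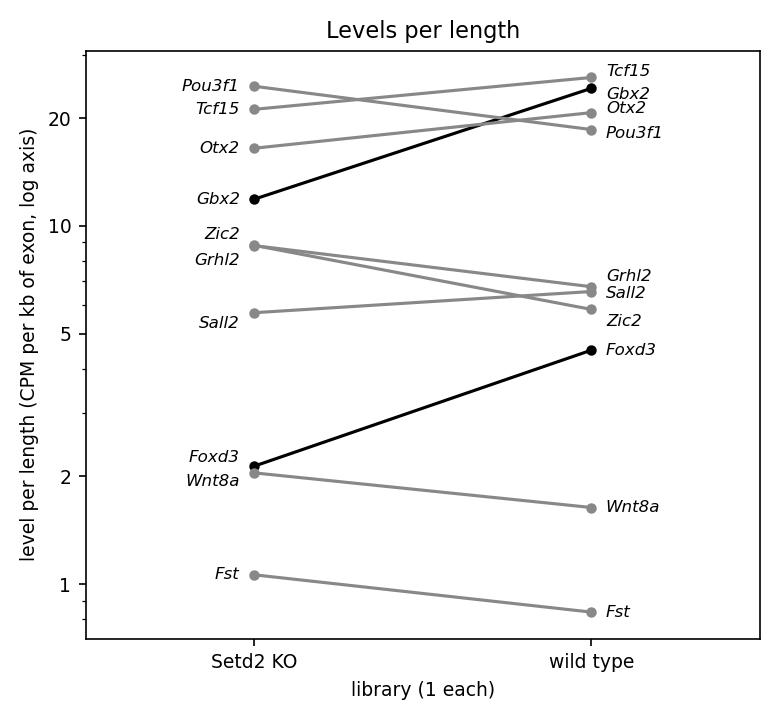
Level per length (CPM per kb of exon, log axis) of the 10 genes in the Setd2 KO cells (left) and wild-type cells (right), with a line for each gene and black lines for the 2 genes at least 2-fold apart. The Gbx2 line is at 11.9 in KO cells and 24.2 in wild-type cells and crosses those of Pou3f1 and Otx2.

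Relatives of the 10 genes were mostly below the floor or not in the table. Of 26 listed family members, 22 were in the table and 9 passed the floor, 4 of them below 0 and 5 above. Of these 9, 0 were beyond 2-fold. Of all genes, 2.11% were at least 2-fold lower and 1.76% higher, so a count of 0 is near those shares. The family median log2 fold was 0.30, against 0.05 for all genes. The family median was 0.067 with every gene above 0 included and 0.12 with a floor of 5 CPM. With a pseudocount of 0.1 CPM 1 gene was at least 2-fold higher. Zic5, which lies 9.73 kb from Zic2 in the opposite orientation, was at 60.9 CPM in KO cells and 34.8 CPM in wild-type cells, 1.75-fold higher (interval 1.65 to 1.85), so both genes of this pair were higher. Of 20 windows of 76 bases from Zic5, 35% also matched elsewhere in the genome, and its level is uncertain to that extent. Among the other relatives, the Wnt ligand gene Wnt3 was at 3.51 CPM in KO cells and 1.56 CPM in wild-type cells, the follistatin-like gene Fstl1 at 228 and 157 CPM, Grhl1 at 9.70 and 7.56 CPM, and Grhl3 at 30.8 and 33.3 CPM. The muscle-lineage factor gene Msc, a relative of Tcf15, was at 1.11 and 2.06 CPM. Pou3f2 and Foxd4 were listed at 0 in both libraries, and Otx1, Gbx1, Pou3f3, Pou3f4 and Zic1 stayed below 1 CPM in both.

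The genes next to the 10 along the chromosomes were measured as well. Of 20 neighbouring rows 17 passed the floor, and 10 of these 17 had a fold of the same sign as the gene beside them, where 7624 of all 13523 genes were above 0 and 5899 below. Agap1, 32.7 kb from Gbx2, was at 64.4 CPM in KO cells and 67.8 CPM in wild-type cells, and Asb18 on the other side was listed at 0 in both libraries. Atg4c and Alg6, on either side of Foxd3, were at 107% (97.9 to 118%) and 101% (94.6 to 107%). The unnamed locus NEWGENE36, 301 kb from Pou3f1, was listed at 0 in KO cells and was at 8.02 CPM in wild-type cells.

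Other genes of the formative and primed epiblast also lay on both sides of 0. Of 20 listed genes 19 were in the table and 19 passed the floor. Of these, 0 were at least 2-fold lower, against 2.11% of all genes, and 2 at least 2-fold higher, against 1.76%. Their median log2 fold was -0.07, against 0.05 for all genes. The claudin gene Cldn6 was at 94.4 CPM in KO cells and 29.1 CPM in wild-type cells, 3.25-fold higher (interval 3.07 to 3.44), and Sox11, a transcription factor gene of neural progenitors, at 123 and 55.2 CPM. Fgf5, the growth factor gene that marks the primed epiblast, was at 1.87 CPM in KO cells and 0.906 CPM in wild-type cells. Its ratio was 2.07 (1.46 to 2.97), and it passed the floor only through KO cells. With the pseudocount of 0.5 CPM its log2 fold was 0.76, so it is not among the 2 genes. Of the de novo DNA methyltransferase genes, Dnmt3a was at 343 and 658 CPM and Dnmt3b at 675 and 573 CPM in KO and wild-type cells. Sox3 was not analysed here.

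Naive genes and genes of the LIF pathway, to which Gbx2 belongs, were lower as lists. Of 15 naive genes compared, 2 were at least 2-fold lower (Zfp42 and Klf2, both on chromosome 8), 0 higher, and 10 were below 0, with a median log2 fold of -0.36. Of all 13523 genes, 2.11% were at least 2-fold lower and 5899 were below 0, with a median of 0.05. Zfp42 was at 68.1 CPM in KO cells and 283 CPM in wild-type cells, with 60% of its windows matching elsewhere, and Klf2 was at 17.1 and 58.0 CPM. The nuclear receptor gene Nr0b1 was at 62.5% of its wild-type level (interval 59.1 to 66.1%) and Tcl1 at 67.4% (61.6 to 73.8%), while Nanog stood at 310 CPM in KO cells and 221 CPM in wild-type cells, with 25% of its windows also found elsewhere. All 7 LIF pathway genes compared were below 0, with a median of -0.34 and 0 of 7 beyond 2-fold. The cytokine gene Lif was at 5.74 CPM in KO cells and 11.1 CPM in wild-type cells, 51.6% of the wild-type level (44.8 to 59.3%). Its receptor gene Lifr was at 62.5% (60.5 to 64.5%), the feedback inhibitor gene Socs3 at 78.7% (75.6 to 81.9%) and Klf4, a naive factor gene downstream of Stat3, at 192 and 246 CPM in KO and wild-type cells. The other LIF pathway genes compared lay closer to the wild type. Il6st was at 98.0% (94.9 to 101%), an interval that holds the wild-type level. Jak1 was at 91.3% (88.4 to 94.4%) and Stat3 at 86.8% (84.0 to 89.7%). Both the naive and the LIF list hold Klf4. The core factor genes Utf1 and Sall4 were at 58.3% and 71.6%.

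Epithelial genes, the group with which Grhl2 is best known, were higher as a list. Of 14 genes compared, 11 were above 0, where 7624 of all 13523 genes were. At least 2-fold higher were 3 of the 14, against 1.76% of all genes. The repressor gene Zeb1 was the 1 gene at least 2-fold lower, against 2.11% of all genes. The median log2 fold of the list was 0.45, against 0.05 for all genes. The splicing factor gene Esrp1 was at 78.0 CPM in KO cells and 28.9 CPM in wild-type cells, 2.69-fold higher (interval 2.54 to 2.85). The claudin gene Cldn7 was at 8.23 and 3.46 CPM in KO and wild-type cells, 238% of the wild-type level (200.4 to 283%), and Cldn6, also in this list, is given above. Zeb1, which represses epithelial genes, was at 17.6 CPM in KO cells and 37.2 CPM in wild-type cells, 47.5% of the wild-type level (43.9 to 51.3%). Its relative Zeb2, counted among the 11 above 0 and also a repressor, was at 9.02 and 6.45 CPM, 1.40-fold higher (1.22 to 1.61). The adhesion gene Cdh1, on chromosome 8, was at 929 and 986 CPM. The list has 2 genes of that chromosome, Cdh1 and Esrp2, and both were below 0. Unlike Esrp1, Esrp2 was lower in KO cells, at 6.29 CPM against 10.3 CPM in wild-type cells, 61.0% of the wild-type level (53.0 to 69.9%).

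On the side of the ligands that follistatin binds, the activin subunit genes were lower. Inhba was at 8.20 CPM in KO cells and 20.3 CPM in wild-type cells, 40.5% of the wild-type level (interval 36.1 to 45.3%), and Inhbb was at 18.3 and 32.3 CPM, 56.8% (52.4 to 61.5%). Nodal, which acts through the same receptors, was 1.24-fold higher (1.18 to 1.31), as was the shared signal transducer gene Smad4 (1.24-fold, 1.19 to 1.29). Of the 10 genes compared in this list, Inhba alone was beyond 2-fold. Of all genes, 2.11% were at least 2-fold lower and 1.76% higher. The list median was 0.04, against 0.05 for all genes. Among 14 genes of Wnt secretion and reception, for the pathway of Wnt8a, 0 were beyond 2-fold and the median was -0.08. Wls, which carries Wnt proteins to the cell surface, was at 202% of its wild-type level (184 to 222%), just inside the threshold on the scale with a pseudocount. The receptor genes Fzd5 and Fzd7 were at 58.7% and 74.4% of their wild-type levels, and the Wnt antagonist gene Sfrp1, on chromosome 8, at 68.8%.

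**Figure D5:**
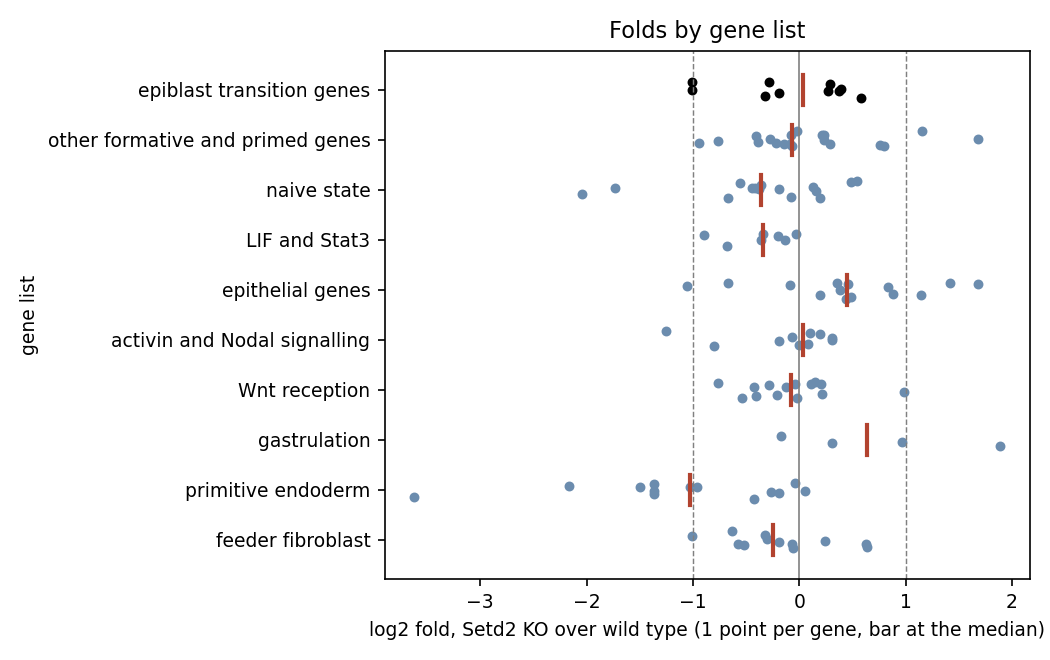
Log2 fold of Setd2 KO over wild type for each gene that averages 1 CPM or more, by gene list, with the list median as a bar and dashed lines at 2-fold. The epiblast transition genes (black, median 0.04) fall on both sides of 0, the naive (median -0.36) and LIF and Stat3 (-0.34) lists lie mostly below it, and the epithelial list (0.45) mostly above.

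Markers of other cell types were measured beside these genes. Of 16 fibroblast genes, which stand for feeder cells, 12 passed the floor, 9 of them below 0, and the list summed to 168 CPM in KO cells and 184 CPM in wild-type cells. The 4 farthest from 0 lay on both sides of it. Prrx1 was at 2.70 CPM in KO cells and 5.97 CPM in wild-type cells, Col1a2 at 9.08 and 14.4 CPM, Tagln at 33.0 and 21.1 CPM, 1.56-fold higher (interval 1.45 to 1.69), and Pdgfrb at 10.7 and 6.72 CPM, 1.59-fold higher (1.39 to 1.81). Col1a1 was at 31.3 and 45.0 CPM in KO and wild-type cells, and Lum was listed at 0 in KO cells and at 0.0713 CPM in wild-type cells. Of 18 primitive endoderm genes 13 passed the floor, 7 of them at least 2-fold lower, against 2.11% of all genes, and 0 higher. Of these 13, 3 (Gata6, Sox7 and Amn) passed only through wild-type cells, and Gata6 and Sox7 are among the 7, as are Col4a1 and Col4a2 on chromosome 8. The list summed to 1122 CPM in KO cells and 1443 CPM in wild-type cells. Gata6 was at 0.953 and 6.00 CPM, Pdgfra at 6.00 and 17.9 CPM, Cubn at 4.50 and 60.9 CPM and Col4a2 at 21.3 and 55.9 CPM, and Afp was listed at 0 in both libraries. Of the 13 genes, 12 were below 0 and 1 above, but not all were far from the wild type. Closest to it were Lamb1 at 405 and 390 CPM in KO and wild-type cells, Lrp2 at 304 and 312 CPM, Sparc at 206 and 235 CPM and Gata4 at 7.21 and 8.80 CPM. Fibroblasts and endoderm can express Fst and Inhba, and the part of these cells in the values above was not tested. Of 11 gastrulation genes 4 passed the floor, with T, the Brachyury gene, at 3.10 CPM in KO cells and 0.470 CPM in wild-type cells, Eomes at 8.83 and 7.02 CPM and Mixl1 at 1.08 and 1.28 CPM. T passed only through KO cells. Of 10 neural genes 3 passed, with Nes at 126 and 60.2 CPM in KO and wild-type cells, Pax6 at 4.03 and 2.95 CPM, and Tubb3, on chromosome 8, at 17.6 and 35.6 CPM.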

How the data were processed

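RNeasy columns yielded the total RNA, and standard Illumina protocols the libraries, per the labels' protocols. TopHat 1.0.13, CASAVA 1.6.0 and the mm9 build are named, with no role, per the submitters' processing notes. The deposited table has 17827 rows. Per the file headers its values are RPKM, but they do not have that scale, and the deposited values were read as log2(x + 1), with x the sequenced bases over a gene in units of 76 bases, not scaled by depth or length. Of x above 0 and under 200, 85.7% in KO cells and 85.9% in wild-type cells were whole multiples of 1 base, within 0.05 of a base. How the authors counted reads with several alignments, and how they took the log, is not stated in any source at hand.

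The log was undone, each library was scaled to 1000000 (CPM), and a symbol on several rows took its highest row. At 1 CPM stood 52.0 read equivalents in KO cells and 56.1 in wild-type cells. Genes that average 1 CPM or more were compared, with a pseudocount of 0.5 CPM and a 2-fold threshold. Percentages of the wild-type level and ratios use no pseudocount and an exact (Clopper-Pearson) 95% interval of the KO share of both rounded counts, computed with scipy 1.17.1. Without molecular identifiers, reads can be copies of 1 molecule. The design had listed no test, since each genotype has 1 library. The procedure was tested on simulated libraries.

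Exon lengths came from GENCODE models of NCBIM37, the same assembly as mm9. For each listed gene, 20 windows of 76 bases were aligned with minimap2 2.31, and a window matching elsewhere with at most 2 mismatches counted as shared. For 9 of the 10 genes 0 windows were shared, and for Foxd3 1 of 20. Promoter sequences came from RefSeq. The alternatives were other pseudocounts, floors, scalings, summing of rows and a 1.5-fold threshold. All 10 genes, Setd2, the 4 genes farthest from a fold of 0 in each list, family members and a set of defining genes were named. Of the rows on either side of each gene, which the rule also allowed, those of Gbx2 and Foxd3, Zic5 and the row of lowest fold are given. Zeb2, Amn, Sox7, Col4a1, Lamb1, Lrp2, Sparc, Gata4, Esrp2, Lum, Afp, Il6st, Jak1 and Stat3 were chosen after their values were seen. The genes and lists were chosen with earlier results of these data known. No gene was named for a pattern like that of another, because 1 difference per gene gives no pattern.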

Additional observations from a re-analysis of the deposited data

How the results depend on the processing

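No paired analysis was possible because each genotype has 1 library, so that leaving out a library was not possible either. The folds of the 10 genes kept their signs under every alternative run, but no alternative could have changed a sign. A pseudocount added to both values cannot do so. The largest shift by a scaling, just over 0.1, was below the smallest fold of the 10, 0.19 in size. Other floors and the summing of rows cannot change the fold of a gene with 1 row, so those recomputed values were fixed beforehand. Of 88 recomputed folds, these included, 82 stayed inside the counting interval. The other 6 moved without depth scaling, a setting that shifts the median of all genes by just over 0.1, from 0.05 to -0.05 on the log2 scale. In that setting Gbx2 was at -1.12 and Zic2 at 0.48. Foxd3 ranged from -1.11 to -0.94 over the alternatives. With a pseudocount of 1 CPM the number of the 10 genes at least 2-fold lower was 0 in place of 2, Gbx2 lying just inside the threshold. With a floor of 5 CPM the median of the 8 remaining genes was -0.24, and 108 genes in all were at least 2-fold higher. At 1.5-fold 916 of all genes were lower and 1004 higher. Of all genes, 285 were lower and 238 higher as reported, against 352 and 183 without depth scaling. The list medians were held against the median lower and median upper counting bound of the list's genes. That range is not a counting interval of the list median itself. Of 108 recomputed values, 89 stayed inside it and 19 moved, among them gastrulation at 0.31 with a floor of 5 CPM and 0.055 with every gene above 0 included. Of 216 recomputed counts of list genes, 201 stayed within 1.5 times the reported ones. Depth limits Wnt8a and Fst, the least counted of the 10 genes.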
